A study of Homo sapiens with 12 samples.

Results

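Interferons and the receptor chains that bind them were examined as 10 named genes: the type I interferon genes IFNB1, IFNE, IFNA14 and IFNA2, the type II interferon gene IFNG, the type III interferon gene IFNL1, and the receptor genes IFNAR1, IFNAR2, IFNGR1 and IFNGR2. A gene was represented by the probe set annotated with its symbol alone, and by the brightest one over the 12 arrays where there were several. This gave a value for 9 of the 10 genes among 36176 probe sets with 1 gene symbol, out of 135750 probe sets on the array. IFNE had no probe set of its own, because its 1 probe set carries 2 symbols, so no value is given for it. IFNGR2 had 2 probe sets and the other measured genes had 1 each.

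RNA was measured on Clariom D Human arrays in MIO-M1 cells, a human line of Müller glia, the main supporting glia of the retina. All 4 groups carry the same Tet3G transactivator clone, in which doxycycline (Dox) switches on a tet-responsive promoter, together with a stably inserted DMPK minigene of exons 11 to 15. Both lines were selected with geneticin and puromycin and, once established, grown with tetracycline-free serum. Whether the selection drugs were present in the cultures for the arrays is not stated. In MIO-M1-CTG(0) cells the minigene has no CTG repeat, and in MIO-M1-CTG(648) cells it has 648 CTG repeats, as in the expansion that causes myotonic dystrophy type 1. Each line was measured without Dox (non-induced) and with 1 μg/mL Dox for 8 days (Dox-induced), with 3 arrays in each group, described as biological replicates. Each repeat length is 1 cell line, so the insertion site and history of a line cannot be told apart from its repeat. Values are log2 signals, and a signal has no absolute scale.

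Facts of the whole series bear on the values as follows. The correlation between any 2 arrays was at least 0.984 and within a group at least 0.992, and the median signal of the probe sets with 1 symbol lay between 5.12 and 5.21. The DMPK signal lay between 7.73 and 8.22 on non-induced MIO-M1-CTG(0) arrays, from 8.49 to 8.63 on Dox-induced MIO-M1-CTG(0) arrays, from 10.00 to 10.32 on non-induced MIO-M1-CTG(648) arrays, and from 9.55 to 9.82 with Dox in that line. On the arrays labelled Dox-induced MIO-M1-CTG(648) it was thus below the non-induced arrays of the line. Where the probes lie relative to exons 11 to 15 is not given in the sources used here, so this signal does not check the labels, and directions below follow the labels. Of 12 measured Müller glia markers, 9 were above the array median on all 12 arrays, among them VIM and GLUL, whereas RLBP1 (2.61 to 3.05), AQP4 (3.78 to 4.42) and KCNJ10 (2.70 to 3.29), markers of mature Müller cells, were below it on every array.

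Interferons are secreted antiviral proteins. Cells make type I and type III interferons after sensors such as RIGI, IFIH1 or toll-like receptors detect foreign or misplaced nucleic acid and activate interferon regulatory factors and NF-κB. IFNA and IFNB proteins bind the pair IFNAR1 and IFNAR2, the type III proteins bind IFNLR1 with IL10RB, and IFNG, made mainly by T and NK cells, binds IFNGR1 with IFNGR2. The receptors signal through JAK kinases and STAT factors, which switch on interferon-stimulated genes. Müller glia are known to respond to interferons and to take part in inflammation of the retina.

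IFNA14 was the 1 interferon that passed the threshold in both comparisons of cells with the induced expansion, and IFNB1 is the classical first interferon made on nucleic acid sensing, so the promoters of these 2 genes are shown beside that of IFNA2, the other alpha gene among the 10. The windows run from 250 bases before to 50 bases after the transcription start, 5′ to 3′ on the minus strand of chromosome 9 (RefSeq, GRCh38.p14). They lie at chr9:21077893-21078192 for IFNB1, chr9:21239956-21240255 for IFNA14 and chr9:21385349-21385648 for IFNA2. Capitals mark every match, on either strand, to 4 motifs. The double GAAA motif is GAAA, any 2 bases and GAAA, and AANNGAAA is its shorter core, both of the interferon regulatory factor type. The GGG-CC motif is GGG, any 5 bases and CC (NF-κB type), and TTCNNNGAA is of the STAT type, with N for any base. A match to the double GAAA motif always holds one to AANNGAAA, and this core was added after the sequences had been read.
IFNB1: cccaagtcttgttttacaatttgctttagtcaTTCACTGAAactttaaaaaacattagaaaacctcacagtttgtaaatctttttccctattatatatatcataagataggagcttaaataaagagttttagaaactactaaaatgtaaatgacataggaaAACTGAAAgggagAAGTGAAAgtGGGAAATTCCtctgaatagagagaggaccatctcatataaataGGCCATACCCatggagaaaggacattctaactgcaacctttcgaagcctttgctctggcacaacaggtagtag
IFNA14: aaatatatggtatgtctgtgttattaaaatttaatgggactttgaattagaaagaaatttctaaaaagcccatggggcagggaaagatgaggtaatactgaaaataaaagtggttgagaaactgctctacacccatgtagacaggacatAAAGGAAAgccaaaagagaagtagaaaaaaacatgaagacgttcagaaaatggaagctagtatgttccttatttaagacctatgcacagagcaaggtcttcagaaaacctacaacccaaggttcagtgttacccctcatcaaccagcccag
IFNA2: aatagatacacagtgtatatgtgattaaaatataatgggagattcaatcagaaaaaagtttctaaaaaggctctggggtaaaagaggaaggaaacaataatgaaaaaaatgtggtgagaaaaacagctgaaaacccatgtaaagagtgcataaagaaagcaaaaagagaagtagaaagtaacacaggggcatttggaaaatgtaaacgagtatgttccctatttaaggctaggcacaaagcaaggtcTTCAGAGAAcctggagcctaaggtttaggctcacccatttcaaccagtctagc

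The IFNB1 window held 2 matches to AANNGAAA, the nearer one from 76 to 69 bases before the start, and after it a match to the GGG-CC motif from 66 to 57 bases before the start. A further GGG-CC match lay on the other strand, and 1 TTCNNNGAA site lay farther upstream. The IFNA14 window held 1 match, to AANNGAAA, from 101 to 94 bases before the start. The IFNA2 window held no AANNGAAA and 1 TTCNNNGAA site across the start. None of these 3 windows held the double GAAA motif, and those of both alpha genes held no GGG-CC match. Among 35116 promoter windows of the same length, 3.57% held the double GAAA motif, 22.8% AANNGAAA, 58.7% the GGG-CC motif and 7.66% TTCNNNGAA. Aligned end to end, the IFNA14 window was identical to the IFNA2 window in 73.9% of 307 columns and to the IFNB1 window in 50.8% of 323 columns. The alpha genes are close copies of each other, and how far the probes of one pick up RNA of another was not tested. Of the other genes, the IFNL1 window held 2 overlapping matches to the double GAAA motif, beside GGG-CC matches, and the windows of IFNGR1 and IFNGR2 held the GGG-CC motif alone of the 4 motifs. The IFNG window held 2 matches to AANNGAAA and 1 TTCNNNGAA site. Those of IFNAR1 held none of the 4 motifs, and IFNAR2 had no window. These are matches of letters, not binding sites.

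The first question was whether interferon itself was expressed above the median of the array. Of the 5 interferons measured, 0 were above the median on all 12 arrays and 3 (IFNB1, IFNL1 and IFNG) were below it on all 12, while all 4 receptor chains were above it on all 12. Among all probe sets with 1 symbol, 42.6% were above on all 12 arrays and 40.5% below on all 12. The array median here and below is that of the probe sets with 1 symbol. The median over all probe sets of the array was lower, between 4.24 and 4.32. IFNA14 and IFNA2 were above that lower median on all 12 arrays, and IFNB1, IFNL1 and IFNG on none. Olfactory receptor genes, which most tissues outside the nose do not use, served as another yardstick. Their 381 probe sets had medians between 3.69 and 3.83 on the arrays, with 95th percentiles between 5.07 and 5.23. The medians of 19341 protein-coding probe sets lay between 6.75 and 6.99. Signals of different probe sets also differ in how well the probes bind, so their order is not an order of RNA amounts.

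IFNB1 (chr9:21077104-21077942), the gene of interferon beta, gave 3.77, 3.99 and 3.66 on non-induced and 3.78, 3.73 and 4.04 on Dox-induced MIO-M1-CTG(0) arrays. In MIO-M1-CTG(648) cells it gave 3.85, 4.19 and 3.66 without Dox and 3.76, 3.74 and 3.91 with Dox. All 12 values lay within the range of the olfactory receptors and the groups overlapped, and 184 of the 381 olfactory receptor probe sets had a mean signal at least as high.

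IFNL1 (chr19:39296407-39298673), which encodes interferon lambda 1 and acts mainly on epithelia, was as dim. Its signals were 3.62, 3.94 and 3.54 on non-induced and 3.35, 3.66 and 4.0 on Dox-induced MIO-M1-CTG(0) arrays, and 3.77, 4.06 and 4.12 on non-induced and 3.90, 3.93 and 4.09 on Dox-induced MIO-M1-CTG(648) arrays. The groups overlapped, and 186 olfactory receptor probe sets were as bright.

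IFNG (chr12:68154768-68159740), the macrophage-activating type II interferon, had the lowest mean signal of the 9 genes, and 253 olfactory receptor probe sets were as bright. In MIO-M1-CTG(0) cells it gave 4.05, 4.08 and 4.15 without Dox and 2.83, 3.50 and 3.60 with Dox. In MIO-M1-CTG(648) cells it gave 3.80, 3.25 and 3.09 without Dox and 2.88, 3.27 and 3.49 with Dox. The 3 non-induced MIO-M1-CTG(0) arrays were above the other 9, although all 12 were below their array medians, with differences from -2.31 to -0.98. Here and below, groups without overlap were common among all probe sets. With against without Dox, 17% of them did not overlap in MIO-M1-CTG(648) cells and 12.9% in MIO-M1-CTG(0) cells. Between the lines it was 30% with Dox and 27.5% without Dox. The share for 3 arrays against the other 9 is not given here.

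IFNA14 (chr9:21239002-21240005), one of the alpha interferons, was the brightest of the 5. In MIO-M1-CTG(0) cells its signals were 5.42, 6.01 and 5.04 without Dox and 5.38, 5.70 and 5.07 with Dox. In MIO-M1-CTG(648) cells they were 5.63, 5.26 and 5.71 without Dox and 6.22, 6.57 and 6.34 with Dox. The 3 Dox-induced MIO-M1-CTG(648) arrays were higher than the other 9. The signal was above the array median and above the 95th percentile of the olfactory receptors on 10 of 12 arrays, with 5 olfactory receptor probe sets as bright, but below the protein-coding median on all 12.

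IFNA2 (chr9:21384255-21385398), the alpha interferon best known as a drug, lay close to the median. Its signals were 4.55, 5.36 and 4.67 on non-induced and 5.32, 4.93 and 4.83 on Dox-induced MIO-M1-CTG(0) arrays, and 4.98, 4.71 and 5.11 on non-induced and 5.86, 5.84 and 5.25 on Dox-induced MIO-M1-CTG(648) arrays. It was above the array median on 5 of 12 arrays, among them the 3 Dox-induced MIO-M1-CTG(648) arrays, and 14 olfactory receptor probe sets were as bright. Dox-induced MIO-M1-CTG(648) arrays were all above the non-induced arrays of that line but overlapped those of MIO-M1-CTG(0) cells.

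**Figure D1:**
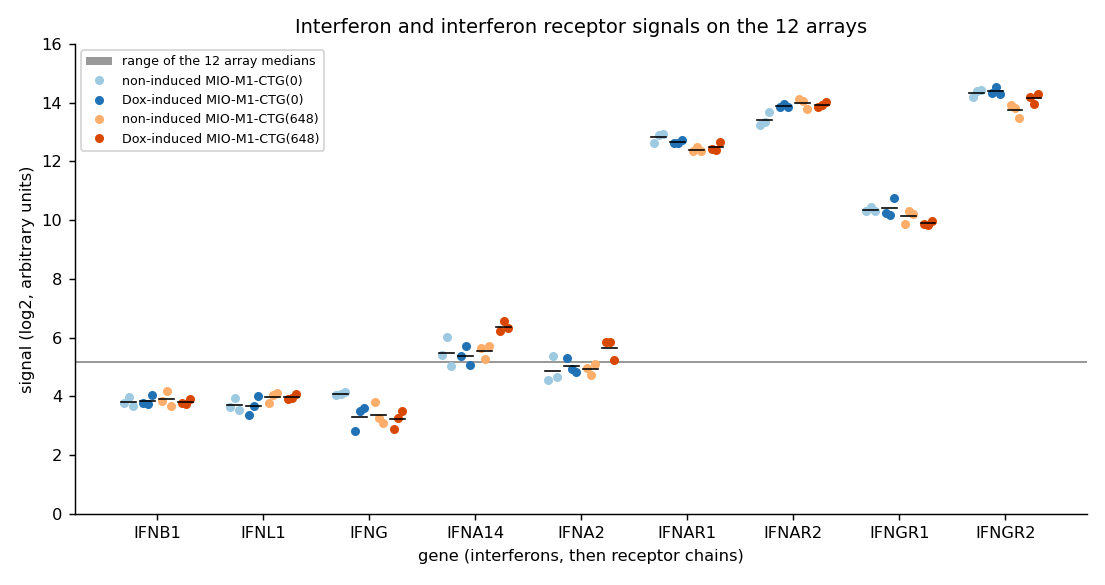
Signal (log2) of the 9 measured genes on each of the 12 arrays, coloured by group, with a black bar at each group mean and a grey band over the array medians of 5.12 to 5.21. The receptor chains lie between 9.85 and 14.54 on every array, and the interferons between 2.83 and 6.57.

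The receptor chains were bright in every group, from 9.85 to 14.54 over the 4 genes, and no olfactory receptor probe set was as bright as any of them on average. IFNAR1 (chr21:33324395-33359864), the signaling chain for type I interferon, gave 12.64, 12.90 and 12.94 on non-induced and 12.63, 12.62 and 12.74 on Dox-induced MIO-M1-CTG(0) arrays. In MIO-M1-CTG(648) cells it gave 12.35, 12.48 and 12.37 without Dox and 12.42, 12.40 and 12.66 with Dox. Without Dox all MIO-M1-CTG(648) arrays were below all MIO-M1-CTG(0) arrays, and with Dox the lines overlapped.

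IFNAR2 (chr21:33229938-33265664), the chain that binds type I interferon most tightly, was at 13.23, 13.36 and 13.67 on non-induced and at 13.84, 13.97 and 13.85 on Dox-induced MIO-M1-CTG(0) arrays. It was at 14.14, 14.06 and 13.77 on non-induced and at 13.87, 13.93 and 14.01 on Dox-induced MIO-M1-CTG(648) arrays. The 3 non-induced MIO-M1-CTG(0) arrays were thus lower than the other 9. Between the non-induced lines, 27.5% of all probe sets likewise did not overlap.

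IFNGR1 (chr6:137197484-137219385), the chain that binds interferon gamma, was the dimmest of the 4 receptor chains. Its signals were 10.30, 10.44 and 10.32 on non-induced and 10.26, 10.18 and 10.77 on Dox-induced MIO-M1-CTG(0) arrays, and 9.88, 10.31 and 10.21 on non-induced and 9.86, 9.85 and 9.98 on Dox-induced MIO-M1-CTG(648) arrays. With Dox the MIO-M1-CTG(648) arrays were all below those of MIO-M1-CTG(0) cells.

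IFNGR2 (chr21:33402882-33437516), the second chain of the interferon gamma receptor, was at 14.20, 14.39 and 14.44 on non-induced and at 14.34, 14.54 and 14.29 on Dox-induced MIO-M1-CTG(0) arrays. It was at 13.93, 13.81 and 13.49 on non-induced and at 14.20, 13.96 and 14.28 on Dox-induced MIO-M1-CTG(648) arrays. The non-induced MIO-M1-CTG(648) arrays were the lowest 3 of the 12. The second IFNGR2 probe set was much dimmer, between 5.96 and 7.55. By median signal the order was IFNGR2, IFNAR2, IFNAR1, IFNGR1, IFNA14, IFNA2, IFNL1, IFNB1 and IFNG. The ranges over the arrays of IFNGR2 and IFNAR2 overlapped, as did those of IFNA14 and IFNA2 and those of the dimmest 3 genes.

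**Figure D2:**
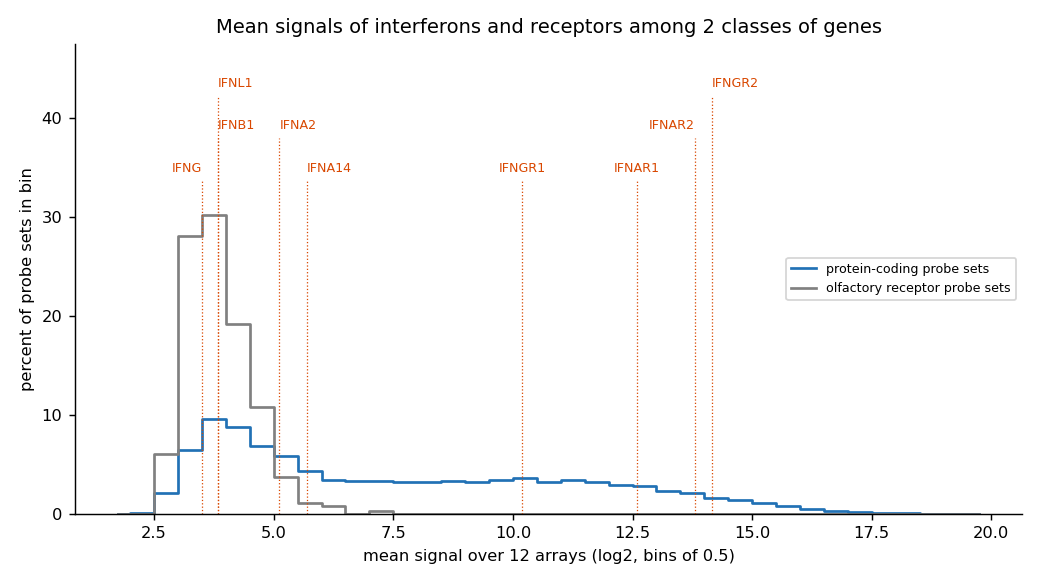
Share of probe sets (percent, y axis) in bins of the mean log2 signal over 12 arrays (x axis), for 19341 protein-coding and 381 olfactory receptor probe sets, with dotted lines at the means of the 9 genes. IFNB1, IFNL1 and IFNG lie at the peak of the olfactory receptors, IFNA14 and IFNA2 at its upper edge, and the receptor chains beyond it.

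Among the other interferon and receptor genes, all 18 listed were measured. Of these, 16 are interferon genes, 11 of them alpha genes. Only IFNA8, an alpha interferon, was above the array median on all 12 arrays, with signals from 6.54 to 7.48, while 12 of the 16 were below it on all 12. The type III receptor chain IFNLR1 lay just above the median, between 5.32 and 6.31, and its partner IL10RB, which also serves the interleukin 10 receptor, lay between 10.80 and 11.79.

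Contrast A asked which signals Dox changed in MIO-M1-CTG(648) cells. To pass the threshold, a probe set needed a log2 fold change of more than 0.5 in either direction together with a limma p below 0.005 before adjustment. The study's methods state both limits beside a false discovery rate correction, without saying to which p the limit applies, and it was taken here as the p before adjustment. In contrast A, 1 of the 9 genes passed, against 2.42% of all probe sets with 1 symbol. IFNA14 rose from 5.53 ± 0.24 to 6.38 ± 0.18 (SD, n = 3 arrays). This was a log2 fold change of 0.84 (standard error 0.24, 95% confidence interval 0.33 to 1.36), with an unadjusted p of 0.00366 in limma. It did not pass after Benjamini-Hochberg adjustment over 36176 probe sets (adjusted p = 0.171), when 0 of the 9 genes and 0.65% of all probe sets did. The call did not hold in the methods' t-test, an unpaired test that they name for comparing a pair of groups in general, beside limma for the arrays. Nor did it hold when all probe sets of the array entered the fit, or when any 1 of 7 arrays was left out. Those were replicate 1 of each of the 4 groups, replicate 2 of both MIO-M1-CTG(648) groups, and replicate 3 of the Dox-induced MIO-M1-CTG(648) group. Over the 12 omissions the log2 fold change stayed between 0.71 and 0.93.

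IFNA2 was higher by 0.72 (95% confidence interval 0.20 to 1.23) and did not pass (adjusted p = 0.253), although it passed without replicate 2 of the non-induced MIO-M1-CTG(0) group (log2 fold change 0.72) or replicate 3 of the Dox-induced MIO-M1-CTG(648) group (0.92). IFNGR2 had a log2 fold change of 0.40 (0.06 to 0.75; adjusted p = 0.362). Its dimmer probe set gave 0.66 (adjusted p = 0.447). The remaining genes lay between -0.24 for IFNGR1 and 0.09 for IFNAR1. For IFNB1 the interval of the difference ran from -0.45 to 0.26, and for IFNL1 from -0.41 to 0.39, at signals where a change of the RNA may go unseen. At an unadjusted p under 0.05 there were 3 genes, all higher. The median log2 fold change over all probe sets was 0.01.

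Contrast B set Dox-induced MIO-M1-CTG(648) cells against Dox-induced MIO-M1-CTG(0) cells and shares its Dox-induced MIO-M1-CTG(648) arrays with contrast A. Again 1 of the 9 genes passed, against 11.7% of all probe sets, and this gene was IFNA14. Its signal was 6.38 ± 0.18 against 5.38 ± 0.32 (SD, n = 3 arrays), which is a log2 fold change of 0.99 (standard error 0.24, 95% confidence interval 0.48 to 1.51, adjusted p = 0.0141). With the adjusted p as the limit 1 gene and 12.3% of all probe sets passed. The call was lost in the methods' t-test, without replicate 3 of the Dox-induced MIO-M1-CTG(0) group (log2 fold change 0.84) and without replicate 2 of the Dox-induced MIO-M1-CTG(648) group (0.90). IFNA2 differed by 0.62 (0.11 to 1.14; adjusted p = 0.113) and IFNGR1 by -0.51 (-0.88 to -0.13; adjusted p = 0.0779), and neither passed. IFNL1 differed by 0.30, IFNGR2 by -0.24 and IFNAR1 by -0.17, and IFNAR2, IFNB1 and IFNG by less than 0.1 in size.

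**Figure D3:**
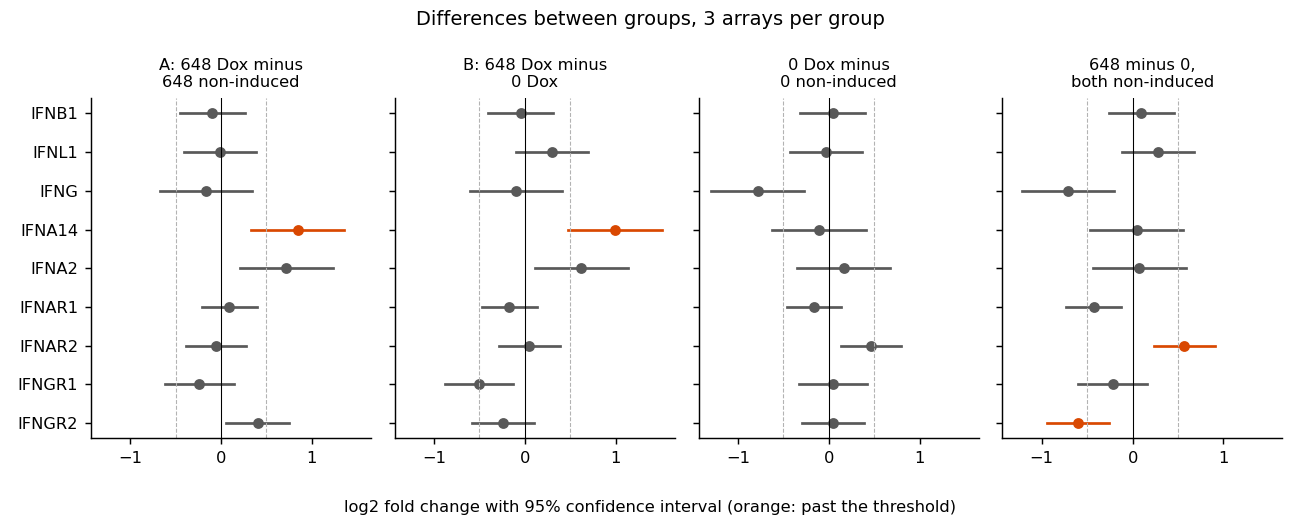
Log2 fold change (x axis, with 95% confidence interval) of each gene in contrast A, contrast B, the Dox comparison in MIO-M1-CTG(0) cells and the comparison of the non-induced lines, with 3 arrays per group and dashed lines at a size of 0.5. Orange marks genes past the threshold, which are IFNA14 at 0.84 and 0.99 in contrasts A and B, and IFNAR2 at 0.57 and IFNGR2 at -0.60 between the non-induced lines.

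The study removed from contrast A the genes that Dox changed in MIO-M1-CTG(0) cells, and from contrast B those that differed between the non-induced lines. With Dox in MIO-M1-CTG(0) cells 0 of the 9 genes passed with limma and 0 with the methods' t-test, while 2 were below an unadjusted limma p of 0.05. Of all probe sets 1.18% passed, and 0.0166% with the adjusted p as the limit. IFNG had a log2 fold change of -0.78 (95% confidence interval -1.29 to -0.28, adjusted p = 0.404). With an unadjusted p of 0.00544 in limma it lay just outside the threshold. It passed without replicate 3 of the Dox-induced MIO-M1-CTG(0) group (-0.93) and without replicate 1 of either MIO-M1-CTG(648) group (-0.78 in both cases), and all of its signals lie among those of the olfactory receptors. IFNAR2 had 0.47 (0.13 to 0.80; adjusted p = 0.444), and passed without replicate 3 of the non-induced MIO-M1-CTG(0) group (0.59). IFNA14 had -0.11 (-0.62 to 0.41) and IFNA2 0.17 (-0.35 to 0.68).

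Between the non-induced lines 2 of the 9 genes passed, both receptor chains, against 11.7% of all probe sets. With the adjusted p as the limit the count was again 2, against 12.5%. IFNAR2 was higher in MIO-M1-CTG(648) cells, at 13.99 ± 0.19 against 13.42 ± 0.23 (SD, n = 3 arrays), which is a log2 fold change of 0.57 (95% confidence interval 0.24 to 0.90, adjusted p = 0.0255). IFNGR2 was lower, at 13.74 ± 0.23 against 14.34 ± 0.13 (SD, n = 3 arrays), which is a log2 fold change of -0.60 (-0.94 to -0.26, adjusted p = 0.0227). The dimmer IFNGR2 probe set gave -0.15 (adjusted p = 0.837). Both calls were lost without replicate 2 of the non-induced MIO-M1-CTG(0) group (0.54 and -0.58). That of IFNAR2 was also lost without replicate 1 of the non-induced MIO-M1-CTG(0) group (0.48) and without replicate 1 (0.50) or replicate 2 (0.54) of the non-induced MIO-M1-CTG(648) group, and that of IFNGR2 without replicate 3 of either group (-0.55 and -0.47). IFNG had a log2 fold change of -0.71 (adjusted p = 0.0661) and IFNAR1 of -0.43 (adjusted p = 0.063), and neither passed. IFNA14 differed by 0.04 (-0.47 to 0.56), so it was past the threshold in neither of the comparisons used for removal.

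The interaction asked whether the lines differed in their response to Dox. In it 0 of the 9 genes passed in limma, against 2.32% of all probe sets, and 0 against 0.47% with the adjusted p as the limit. At an unadjusted p under 0.05 there were 2. These were IFNA14, at 0.95 (95% confidence interval 0.22 to 1.68, adjusted p = 0.317), and IFNAR2, at -0.52 (-0.99 to -0.05, adjusted p = 0.414). The methods' t-test was not run for it. That the rise of IFNA14 with Dox differed between the lines was therefore not shown at the threshold. It passed without replicate 3 of the non-induced MIO-M1-CTG(0) group alone of the 12 omissions.

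Signals of the alpha interferons IFNA8 and IFNA2 varied together with that of IFNA14 across arrays. IFNA8 gave 6.73, 7.24 and 6.54 on non-induced and 6.79, 6.67 and 6.73 on Dox-induced MIO-M1-CTG(0) arrays, and 7.10, 6.78 and 6.96 on non-induced and 7.14, 7.41 and 7.48 on Dox-induced MIO-M1-CTG(648) arrays. In contrast B it had a log2 fold change of 0.61 (adjusted p = 0.0419), with an unadjusted p of 0.00502 in limma, just outside the threshold, and in contrast A 0.40 (adjusted p = 0.460). Over the 12 arrays, which share these groups, the signals of IFNA14 and IFNA8 had a Pearson correlation of 0.90, and 0.76 after the group means were removed. For IFNA14 and IFNA2 these were 0.82 and 0.60, and for IFNA14 and IFNA5 0.42 and 0.02. Replicate 2 of the non-induced MIO-M1-CTG(0) group was the highest of its group for IFNA14, IFNA2 and IFNA8. Over the 13 measured alpha genes the median log2 fold change was 0.28 in contrast A, with 8 above 0, and 0.17 in contrast B, with 10 above 0, beside 0.01 over all probe sets in each. In both contrasts 1 of the 13 passed, IFNA14, against 2.42% of all probe sets in contrast A and 11.7% in contrast B.

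**Figure D4:**
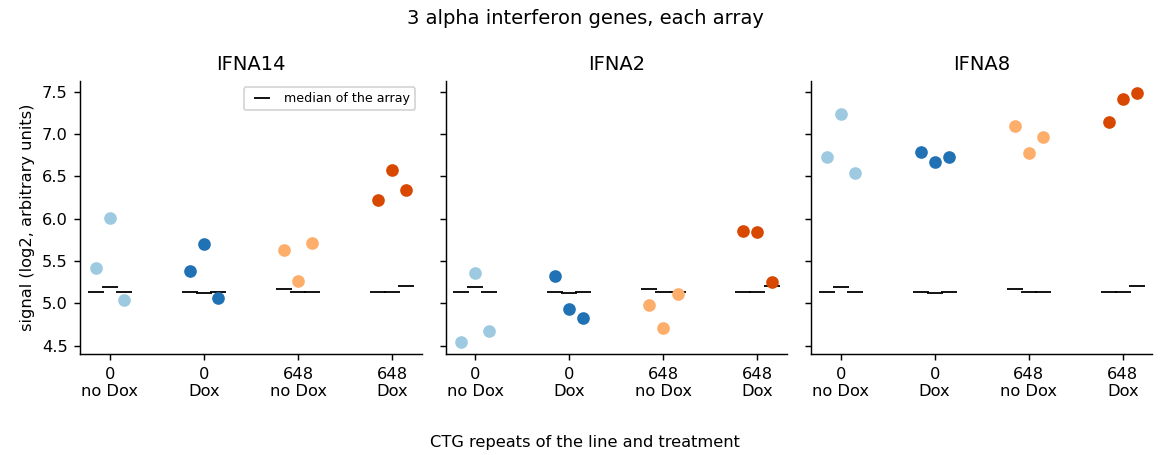
Signal (log2) of IFNA14, IFNA2 and IFNA8 on each array, by repeat length and treatment, with a black dash at the median of the array. The 3 Dox-induced MIO-M1-CTG(648) arrays lie at 6.22 to 6.57 for IFNA14, above all others. They lie at 5.25 to 5.86 for IFNA2 and at 7.14 to 7.48 for IFNA8, where they overlap other groups.

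Of the 18 other interferon and receptor genes, 1 passed in any of the 5 comparisons, in each of which 1.18% to 11.7% of all probe sets passed. IL10RB was lower in contrast B, with a log2 fold change of -0.79 (adjusted p = 0.0028). Its signals were 10.85, 10.89 and 10.80 on Dox-induced MIO-M1-CTG(648) arrays and 11.79, 11.43 and 11.68 on Dox-induced MIO-M1-CTG(0) arrays. They did not overlap, as for 30% of all probe sets. In contrast A, 0 of the 18 passed in limma and 3 had an unadjusted p under 0.05. The median log2 fold change of the list was 0.13 in contrast A and 0.11 in contrast B.

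The 5 genes whose signals ran closest to a called gene over the 12 arrays were sought among 7673 protein-coding genes with an SD of at least 0.3, as a description. For IFNA14 they were LCE1E (Pearson r 0.93), MYLK3 (0.93), FASLG (0.90), TRA2A (0.90) and IFNA8 (0.90). For IFNGR2 they were MYO10 (0.95), PRR14L, NASP, SIMC1 and ELP3 (0.93 each), and for IFNAR2 DENND1B (0.92), TANC1 (0.90), SLC7A11 (0.89), VPS8 (0.89) and PLEKHM3 (0.88). All share the group structure of the same 12 arrays.

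Genes that act upstream of interferon were mostly well above the median, 16 of the 20 measured on all 12 arrays. In contrast A 5 rose and none fell, with a list median of 0.20, where 2.42% of all probe sets passed. They were the RNA sensors RIGI, by 1.41 (adjusted p = 0.000543), and IFIH1, by 0.79 (adjusted p = 0.0616), the transcription factor IRF1, by 1.72 (adjusted p = 0.00151), the kinase IKBKE, by 0.73 (adjusted p = 0.0367), and the adaptor TRAF3, by 0.69 (adjusted p = 0.0758). In contrast B 6 were higher and 2 lower, where 11.7% of all probe sets passed. IFIH1 was higher by 2.24, TLR4, a receptor for bacterial lipopolysaccharide, by 1.84 and STING1, the adaptor of cytosolic DNA sensing, by 1.55. These 3 were however also higher between the non-induced lines, by 1.80, 1.61 and 2.58. IRF1 was higher by 1.22 (adjusted p = 0.00176), with -0.69 between the non-induced lines, which did not pass. The other genes that rose in contrast A did not pass in contrast B, at 0.42 for RIGI, 0.30 for IKBKE and -0.16 for TRAF3. RIGI and TRAF3 were lower in MIO-M1-CTG(648) cells between the non-induced lines, with log2 fold changes of -0.65 and -0.84. There 3 of the 20 genes were higher and 4 lower, where 11.7% of all probe sets passed. IRF7, which amplifies the transcription of alpha interferon genes, was below the array median on all 12 arrays (3.27 to 4.09). With Dox in MIO-M1-CTG(0) cells 0 of the 20 passed in limma, against 1.18% of all probe sets, and 3 had an unadjusted p under 0.05.

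Downstream of the receptors, 7 signaling genes were measured. The kinases JAK1 (13.75 to 14.37), JAK2 (7.71 to 8.53) and TYK2 (9.99 to 11.20) and the factor IRF9 (8.31 to 9.18) were above the array median on all 12 arrays. In contrast A 1 of the 7 passed, PTPN6, a phosphatase mainly of blood cells, with 0.73 (adjusted p = 0.102) at signals from 2.54 to 3.65, and in contrast B 0 passed in limma, with 3 at an unadjusted p under 0.05. Of 4 feedback genes, 0 passed in contrast A in limma, with 0 at an unadjusted p under 0.05. In contrast B 1 was lower, USP18, which blocks IFNAR2, by a log2 fold change of -1.07 (adjusted p = 0.0024), after -1.52 between the non-induced lines. Beside these counts, 2.42% of all probe sets passed in contrast A and 11.7% in contrast B.

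Of 22 target genes of type I and type III interferon, 9 rose and none fell in contrast A, with a list median of 0.48. The shares of all probe sets beside the counts in this paragraph were 2.42% in contrast A and 11.7% in contrast B. Between the non-induced lines the share was also 11.7%. The antiviral genes RSAD2, OASL and IFIT2 rose by 2.44 (adjusted p = 7.92e-06), 2.10 (adjusted p = 0.000479) and 1.97 (adjusted p = 0.00021). RSAD2 was at 8.61 ± 0.17 on non-induced and 11.05 ± 0.10 on Dox-induced MIO-M1-CTG(648) arrays, and at 10.39 ± 0.14 and 10.76 ± 0.23 in MIO-M1-CTG(0) cells in the same order (SD, n = 3 arrays). In contrast B 5 of the 22 were higher and 5 lower, with a list median of 0.10, and RSAD2 had 0.29 (adjusted p = 0.287). The apoptosis-related XAF1 was lower in contrast B, with a log2 fold change of -1.52 (adjusted p = 4.61e-05). Between the non-induced lines 7 of the 22 were lower in MIO-M1-CTG(648) cells, XAF1 by a log2 fold change of -1.55 among them, and none higher. Dox in MIO-M1-CTG(0) cells brought 0 of the 22 past the threshold in limma, against 1.18% of all probe sets. The list median was 0.205 there, with 19 of the 22 above 0. At an unadjusted limma p under 0.05, 5 were higher and 0 lower in that comparison. Of 13 targets mostly of interferon gamma, 3 rose and none fell in contrast A: the chemokines CXCL10, by 2.66, and CXCL11, by 1.36, and the GTPase GBP4, by 0.90. CXCL10 and CXCL11 also answer to type I interferon and NF-κB. In contrast B 2 of the 13 were higher and 3 lower, with a list median of -0.25. CXCL10 and CXCL11 were higher, by 3.83 and 1.95, and the GTPases GBP1, GBP4 and GBP5 were lower, with log2 fold changes of -0.99, -0.87 and -0.63. Between the non-induced lines CXCL10 was higher, by 1.36, while GBP1 (-1.24) and GBP4 (-1.39) were lower. Dox in MIO-M1-CTG(0) cells brought 0 of the 13 past the threshold in limma, with a list median of 0.10. At an unadjusted limma p under 0.05, 2 of them were higher there and 0 lower. The class II gene HLA-DRA and the class II activator CIITA did not pass in contrast A, with log2 fold changes of -0.14 for CIITA and 0.16 for HLA-DRA. In contrast B CIITA had -0.74 (adjusted p = 0.0426), with an unadjusted p of 0.00514 in limma, just outside the threshold. HLA-DRA had 0.07 there. These lists were chosen with earlier results of these arrays known and are not independent evidence of a direction.

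Markers of the cells that make most interferon in the body were set beside these values. The arrays are of cultured MIO-M1 cells, and the methods name no other cell type in the cultures. In bulk RNA fewer cells of a type and less RNA per cell cannot be told apart. Of 9 measured markers of plasmacytoid dendritic cells and macrophages, CLEC4C (3.08 to 3.91) and LILRA4 (2.69 to 3.26), which define plasmacytoid dendritic cells, were below the array median on all 12 arrays, and IL3RA, CD163 and CSF1R were above it on all 12. The summed linear signal of the 9 ranged from 297 to 329 on non-induced and 326 to 372 on Dox-induced MIO-M1-CTG(0) arrays, and from 304 to 342 on non-induced and 302 to 369 on Dox-induced MIO-M1-CTG(648) arrays. Of 9 measured markers of T and NK cells only NCAM1, which glia and neurons also use, was above the median on all 12, and CD3D, CD3G, CD2, KLRD1 and GNLY were below it on all 12. The others were above it on some arrays, NKG7 on 9, PTPRC on 5 and CD3E on 3. Their summed signal, most of it from NCAM1, ranged from 9173 to 11434, 11520 to 13231, 11667 to 14328 and 12139 to 14037 in the same order of groups. The 12 Müller glia markers summed to 308949 to 322464, 290123 to 313669, 406494 to 431355 and 339290 to 364502. In contrast A 2 of these 12 passed, SLC1A3 (0.71) and EGFR (0.55), against 2.42% of all probe sets. The median log2 fold change of the 12 was however -0.14, and at an unadjusted limma p under 0.05, 2 were higher and 4 lower. With Dox in MIO-M1-CTG(0) cells SLC1A3 had 0.55 (adjusted p = 0.403) and EGFR -0.42 (adjusted p = 0.521), and neither passed. The part of these markers in the interferon values was not tested.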

How the data were processed

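Deposited log2 signals (2 decimals) of 12 Clariom D Human arrays were read, for which the authors name background correction by robust multiarray average (RMA) and quantile normalization; the submitters' processing notes name RMA and hg38, with no version. They were used without further normalization. The number of arrays limits the precision. Of 135750 probe sets 36176 have 1 symbol, 1119 several and 98455 none. Positions are those of RefSeq on GRCh38.p14.

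One limma model (limma 3.58.1, R 4.3.3) held all 4 groups (8 residual and 5.11 prior degrees of freedom), and p-values were adjusted by Benjamini-Hochberg over the 36176 probe sets. The fit was tested on simulated data. The labels call the 3 arrays of a group biological replicates, and p-values rest on the spread among them. All members were named. Of pathway lists up to 4 genes with the smallest p in contrast A or B were to be named. IRF1, IKBKE, TRAF3, IRF7, JAK1, JAK2, IFIT1, GBP4, CIITA and HLA-DRA fall outside this rule and were named after their values were seen. Promoters were aligned with Biopython 1.88. The members and lists were chosen with earlier results of these data known. Alternatives are listed in the closing section.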

Additional observations from a re-analysis of the deposited data

Results flagged for a closer look

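Arrays of 3 per group were too few to look for single outlying arrays. A different response to Dox in the 2 lines passed the threshold of the report in limma for 0 of the 9 interferon and receptor genes. It passed for 10 of the named genes upstream or downstream of them and for 2 named markers of cell types, against 2.32% of all probe sets. Many of these genes were named by their p in contrast A or B, or after their values were seen. Contrast A is part of this difference, so the counts of named genes are not independent evidence. The difference was the log2 fold change with Dox in MIO-M1-CTG(648) cells minus that in MIO-M1-CTG(0) cells. Upstream it was 1.07 for the RNA sensor RIGI (adjusted p = 0.0484) and 1.92 for the transcription factor IRF1 (adjusted p = 0.0136). Among target genes it was 2.07 for RSAD2 (adjusted p = 0.0017), 1.64 for IFIT2 (adjusted p = 0.0147), 1.76 for OASL (adjusted p = 0.0222) and 2.48 for CXCL10 (adjusted p = 0.0012). It was 1.29 for IFIT1 (adjusted p = 0.189), 1.68 for CXCL11 (adjusted p = 0.146) and 1.02 for PTPN6 (adjusted p = 0.124), a gene below the array median on all 12 arrays. It was negative for STING1, at -1.03 (adjusted p = 0.113), with log2 fold changes of -0.49 and 0.54 with Dox in the respective lines, neither past the threshold. Of the markers it was 0.97 for EGFR (adjusted p = 0.112) and -0.92 for CD163 (adjusted p = 0.156). For IFNA14 the same difference was 0.95 (adjusted p = 0.317) and did not pass.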

How the results depend on the processing

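The count of 4 genes above the array median on all 12 arrays, the receptor chains, was also 4 without any 1 array. It was the same 4 against the protein-coding median and the 95th percentile of the olfactory receptors. Against the median of all probe sets, or that of the olfactory receptors, IFNA14 and IFNA2 were also above on all 12 arrays. Judged by the mean over the 12 arrays, IFNA14 (5.70), alone of the interferons measured, was above the array median too. The count in contrast A fell from 1 to 0 with the adjusted p, a log2 fold change over 1, the methods' t-test (also after Benjamini-Hochberg) and all probe sets, and ran from 0 to 2 without 1 array. That in contrast B fell from 1 to 0 with a fold change over 1 and in the methods' t-test (also after Benjamini-Hochberg), and ran from 0 to 1. With Dox in MIO-M1-CTG(0) cells 0 became 1 with array weights, an intensity trend or the groups of the contrast alone, and ran from 0 to 1. Between the non-induced lines 2 became 0 with a fold change over 1, the groups alone, the methods' t-test (also after Benjamini-Hochberg) and all probe sets, 1 when the probe sets of a gene were averaged or their median taken, and ran from 0 to 3. For the interaction the count of 0 ran from 0 to 1. The cause of these shifts was not tested, beyond the stricter limits by construction.

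The replicate numbers did not pair the arrays: the 18 correlations of same-numbered arrays' deviations ran from -0.08 to 0.07. With the replicate block the non-induced count was 1 in place of 2, and the other counts of called members did not change. Of 588 values of the 9 genes under the other settings 0 reversed a call, 21 lost it and 3 gained it. Uncalled values changed sign in 2 cases. Over all probe sets the counts were 876, 4227, 427, 4247 and 838 for contrast A, contrast B, Dox in MIO-M1-CTG(0) cells, the non-induced lines and the interaction. They became 235, 4454, 6, 4515 and 170 with the adjusted p.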

Other observations

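Interferon pseudogenes, inactive copies beside the interferon genes, were added after the data were seen. All 14 measured had signals between 2.35 and 5.81, and 0 were above the array median on all 12 arrays. In limma 0 of the 14 passed the threshold in contrast A and 0 in contrast B, where 1 and 0 had an unadjusted p under 0.05. Their median log2 fold changes were 0.00 and -0.06. The shares of all probe sets past the threshold in these contrasts were 2.42% and 11.7%.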
